A study of Arabidopsis thaliana with 6 samples.

Results

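FAD2 (AT3G12120, probe set 256277_at) and FAD3 (AT2G29980, probe set 266865_at) encode the fatty acid desaturases of the endoplasmic reticulum in Arabidopsis thaliana. They are 2 of the 15096 genes that a probe set of these arrays names alone. Both were found by their symbols in the titles of the authors' table, and each is read by 1 probe set. The pair was chosen by its measured values, since both transcripts stood higher in agl67 mutant seeds than in wild-type seeds on these same arrays. Their difference between the genotypes is therefore a description and is given without a test.

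The samples were 3 of agl67 mutant seeds, which the labels call the mads-box mutant, and 3 of wild-type seeds, all in the Columbia-0 ecotype. The labels name no allele; AGL67 encodes a MADS-box transcription factor. Seeds of both genotypes had spent 3 days in water in the dark at 4 °C and then 3 hours in light at 22 °C with 5 µM abscisic acid (ABA), so no group without ABA and no dry seed was compared. The labels call the samples of a genotype biological replicates, and the RNA came from ground whole seeds, in which fewer cells of a type and less RNA per cell cannot be told apart.

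FAD2 and FAD3 are membrane enzymes that act one after the other on fatty acids bound to phosphatidylcholine. FAD2 turns oleate into linoleate, and FAD3 turns linoleate into alpha-linolenate, the polyunsaturated fatty acids of seed oil and of membranes outside the plastid. Electrons reach both enzymes from NADH through cytochrome b5 reductase and cytochrome b5. The plastid has its own counterparts, FAD6 for the first of these steps and FAD7 for the next, which draw electrons from ferredoxin. Soluble stearoyl-ACP desaturases of the plastid, of which SSI2 is the best known, make the oleate that enters both routes.

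Values are log2 expression levels of a probe set, so a difference of 1 is a doubling, and levels of different probe sets are not compared. Of the array medians 5 lay between 3.97 and 4.00, and that of the third wild-type array was 3.80. This array correlated at r = 0.980 with the first wild-type array, while the lowest correlation among mutant arrays was 0.996 (across probe sets, which are not independent replicates). AGL67 read 4.15, 4.30 and 3.66 on the mutant arrays against 8.79, 8.25 and 8.78 on the wild-type arrays. The log2 change was -4.57 (limma adjusted p = 0.000887), lower in the samples labelled as the mutant. The seed markers CRA1, a storage globulin, and EM1 and EM6, proteins of the drying embryo, read at least 12.17 on all arrays, on which the highest value of any probe set was 14.2.

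FAD3, the linoleate desaturase, read 7.82, 8.18 and 7.99 in agl67 mutant seeds against 6.15, 6.38 and 5.86 in wild-type seeds. The lowest mutant array stood 1.44 above the highest wild-type array, and the spread within a genotype was at most 0.51. FAD3 averaged 7.99 ± 0.18 in mutant seeds and 6.13 ± 0.26 in wild-type seeds (SD, n = 3 each). The difference was 1.86 on the log2 scale (SE 0.16), a 3.64-fold higher reading in the mutant and the 26th largest rise of all 22746 probe sets other than controls. The authors' deposited table gives a log2 ratio of 1.86 for FAD3.

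FAD2, the oleate desaturase, read 8.94, 8.88 and 9.02 in agl67 mutant seeds against 7.68, 7.93 and 6.96 in wild-type seeds. The mutant arrays lay within 0.13 of each other, while the wild-type arrays spanned 0.97, with the third wild-type array below the other two. The groups did not overlap, and the lowest mutant array stood 0.95 above the highest wild-type array. FAD2 averaged 8.95 ± 0.07 in mutant seeds and 7.52 ± 0.50 in wild-type seeds (SD, n = 3 each), a difference of 1.42 (SE 0.23), or 2.68-fold. It was the 83rd largest rise, and the authors' deposited table gives a log2 ratio of 1.36.

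**Figure D1:**
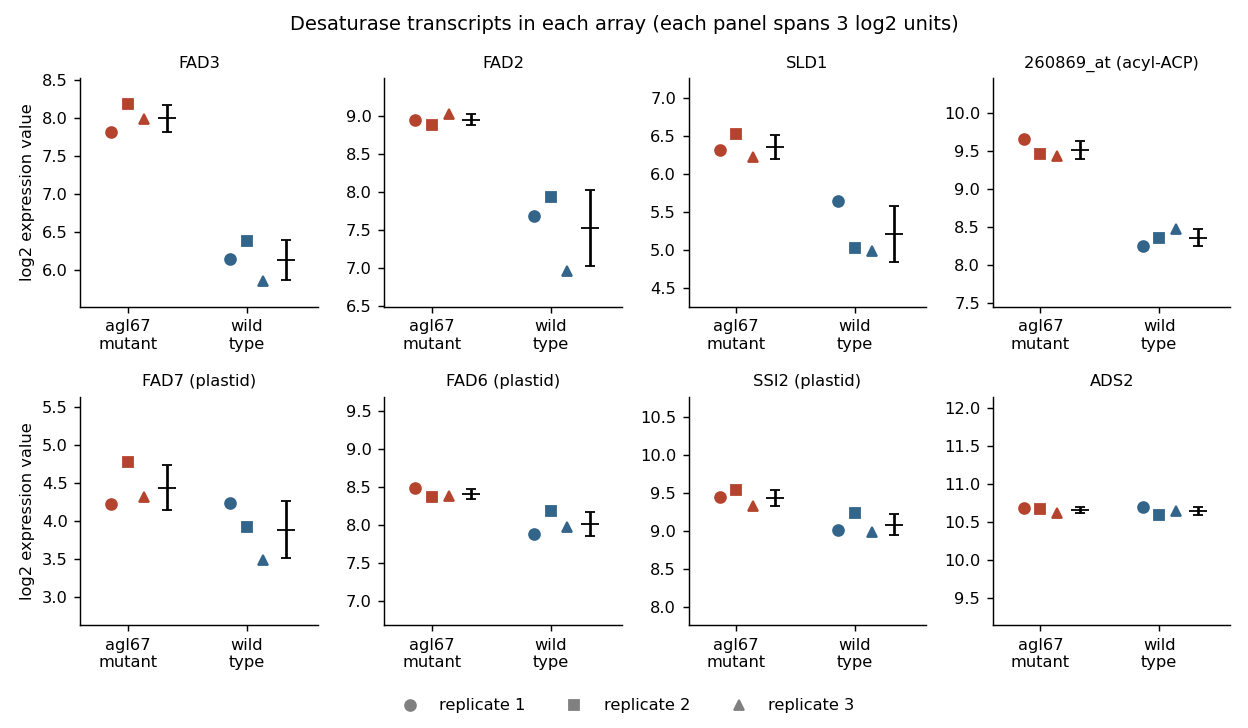
Log2 expression values (vertical axes, each spanning 3 units) of 8 desaturase probe sets in agl67 mutant and wild-type seeds, 1 point per array with its replicate number as the symbol, and the mean with SD of 3 arrays beside each group. FAD3, FAD2, SLD1 and 260869_at show groups set well apart, the groups of FAD6 and SSI2 lie closer together without overlap, and those of FAD7 and ADS2 overlap.

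Set against its own wild-type mean, FAD3 moved by 0.27, 0.69 and 0.36 more than FAD2 on the mutant arrays, in replicate order, and the mean change of FAD3 exceeded that of FAD2 by 0.44. The same quantity read -0.14, -0.16 and 0.30 on the wild-type arrays. The third wild-type array thus lay inside the range of the mutant arrays for this contrast between the genes, and the larger change of FAD3 is not set apart from the spread between arrays. Within the wild type the genes shared an order of arrays. FAD3 lay 0.25 above its wild-type mean on the second array and 0.27 below it, at -0.27, on the third, and FAD2 lay at 0.41 and -0.57 on the same arrays. Within the mutant they did not share one, since the second array was the highest for FAD3, at 0.18 above the mean, and the lowest for FAD2, at -0.07.

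The third wild-type array, the one that stood apart over all probe sets, gave the lowest wild-type reading of both genes. Without it the change of FAD2 was 1.14 and that of FAD3 was 1.73. Without the second wild-type array, the highest of its group for both genes, the changes were 1.63 for FAD2 and 1.99 for FAD3. Leaving out a mutant array gave 1.39 to 1.46 for FAD2 and 1.77 to 1.95 for FAD3. FAD3 had the larger change in each of the 6 fits.

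**Figure D2:**
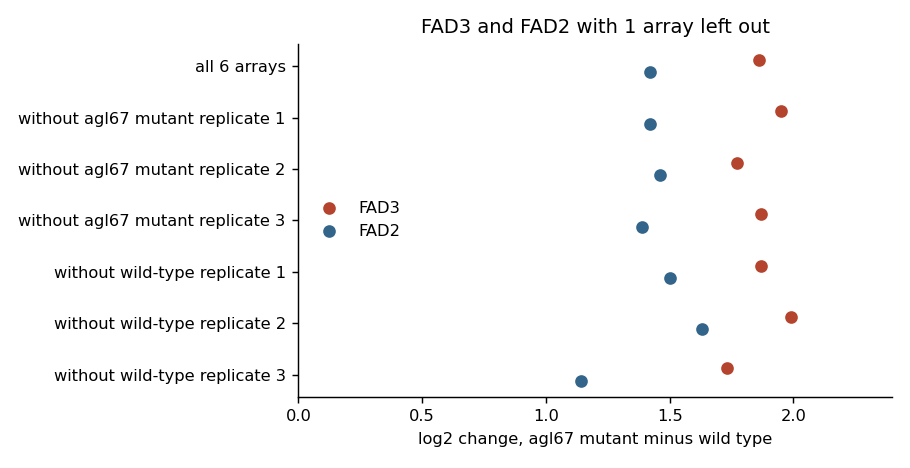
Log2 change, agl67 mutant minus wild type (horizontal axis), of FAD3 and FAD2 with all 6 arrays and with each array left out. FAD3 stays between 1.73 and 1.99, and FAD2 between 1.14 and 1.63, with its lowest value in the fit that leaves out wild-type replicate 3.

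Among the other desaturases, the question was whether the remaining steps of fatty acid desaturation differed between the genotypes as well. Besides FAD2 and FAD3, 8 probe sets have the words fatty acid desaturase in their titles. In limma 0 of these passed an adjusted p of 0.05, 2 had an unadjusted p below 0.05, and 0 passed in the authors' deposited table. Their median log2 change was 0.10, within a range of -0.16 to 0.55, beside a median of 0.02 over all probe sets. Over all probe sets 2.7% passed, 1.93% higher and 0.778% lower in the mutant. An unadjusted p below 0.05 was reached by 16.4% of all probe sets, a false discovery rate below 0.05 in the authors' deposited table by 2.25%, and a change above 0 by 54.9%.

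FAD6, which carries out in the plastid the step that FAD2 carries out in the endoplasmic reticulum, read 8.49, 8.37 and 8.38 in mutant seeds against 7.88, 8.19 and 7.97 in wild-type seeds. The groups did not overlap, but the gap was narrow, and the change of 0.40 did not pass (SE 0.11, limma adjusted p = 0.136). FAD7, the plastid counterpart of FAD3, read 4.22, 4.77 and 4.32 in mutant seeds against 4.24, 3.92 and 3.49 in wild-type seeds. Here the groups overlapped, and the change of 0.55 did not pass (SE 0.22, limma adjusted p = 0.271). The authors' title repeats the FAD7 entry for this probe set, and the suffix of its ID marks probes that may read more than 1 transcript.

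The other 6 of these 8 probe sets are titled only as members of the fatty acid desaturase family. They are AT1G06100 with a log2 change of 0.08, AT3G15870 with 0.04, and 258250_at, 255276_at, 259391_s_at and 260950_s_at with 0.11, -0.14, 0.33 and -0.16. Of the 6, 258250_at averaged 9.12 in mutant seeds and 9.01 in wild-type seeds. The group means of the others lay between 2.79 and 3.50, below the array medians, and readings this low may hide a change. In all 6 the mutant and wild-type arrays overlapped, and limma adjusted p-values ran from 0.478 to 0.881. Of these, 260950_s_at is paired with several genes.

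The gene list of desaturases added 6 probe sets, of which SLD1 (AT3G61580) rose. SLD1 desaturates the long-chain bases of sphingolipids in the endoplasmic reticulum and, like FAD2 and FAD3, is a membrane enzyme, with a cytochrome b5 domain of its own. It read 6.32, 6.53 and 6.22 in mutant seeds against 5.64, 5.02 and 4.98 in wild-type seeds, with the first wild-type array nearest to the mutant. The change was 1.15 (SE 0.19, limma adjusted p = 0.0272), or 2.22-fold, and the authors' false discovery rate in their deposited table was 0.0150. With 1 array left out, SLD1 passed without wild-type replicate 1 (1.36) and without wild-type replicate 3 (1.03), and in the other 4 fits the limma adjusted p lay at 0.0959 to 0.149.

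ADS2, a membrane desaturase gene of the ADS family, read 10.69, 10.67 and 10.62 in mutant seeds against 10.70, 10.59 and 10.65 in wild-type seeds. The arrays of both genotypes were interleaved, and the change was 0.01 (95% interval -0.20 to 0.23, limma adjusted p = 0.962). SSI2, the plastid stearoyl-ACP desaturase, read 9.45, 9.54 and 9.33 in mutant seeds against 9.02, 9.24 and 8.99 in wild-type seeds. Its groups did not overlap, and the change of 0.36 did not pass (limma adjusted p = 0.175). The related acyl-ACP desaturase genes AT5G16240, AT3G02630 and AT5G16230 had changes of 0.27, 0.08 and -0.07, with overlapping groups.

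A wider set, drawn after the values were seen, holds all 25 other probe sets with desaturase in their titles. Of these 8 had an unadjusted p below 0.05, against 16.4% of all probe sets. After adjustment 2 rose, 0 fell and 23 did not pass, where 1.93% of all probe sets rose and 0.778% fell. The 2 are SLD1 and 260869_at, which the authors' table titles a putative stearoyl-ACP desaturase and which no table used here pairs with a gene. It read 9.65, 9.46 and 9.43 in mutant seeds against 8.25, 8.35 and 8.47 in wild-type seeds, without overlap and with the third wild-type array the highest of its group rather than the lowest. The change was 1.16 (SE 0.11, limma adjusted p = 0.00469), or 2.23-fold, and it passed in each of the 6 fits that leave out 1 array (1.09 to 1.22). The title says of the enzyme that it acts on fatty acids bound to acyl carrier protein, the step before that of FAD2.

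The desaturases of other lipids gave values on both sides of 0. Of 5 sterol desaturase probe sets 0 passed in limma or in the authors' deposited table and 3 had an unadjusted p below 0.05, against 16.4% of all probe sets below that p, with STE1, of sterol synthesis, at 0.57, 254860_at at 0.55 and 254333_at at -0.75. The carotenoid desaturase genes PDS3 and ZDS had changes of -0.04 and -0.03, and overlapping groups. The remaining titles are those of 260957_at (ADS1) with 0.09, the stearoyl-ACP desaturase probe set 258473_s_at with 0.14, the sphingolipid desaturase probe set 266592_at with -0.15, and the sterol desaturase probe sets AT3G02590 and 254280_at with 0.03 and 0.18, all with overlapping groups. FAD3 and FAD2 had the largest changes of the 27 probe sets with desaturase in their titles. The pair was chosen for its higher readings in the mutant on these same arrays, so this rank is only a description.

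**Figure D3:**
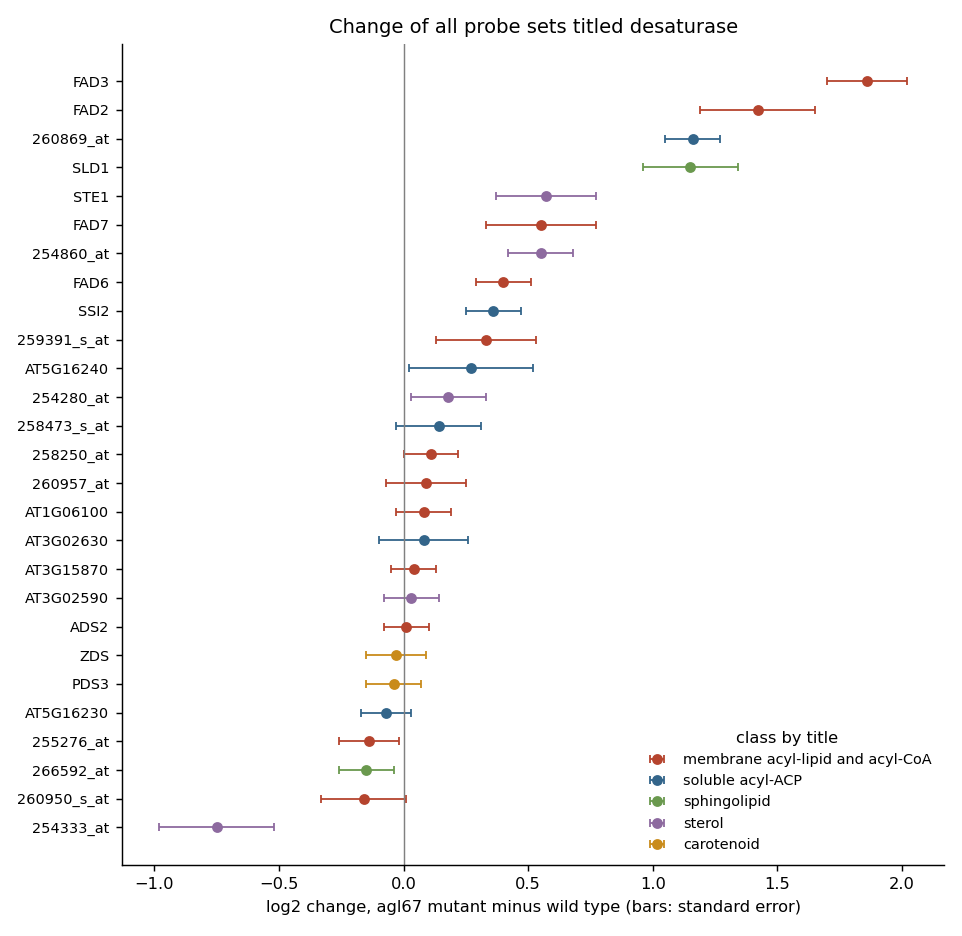
Log2 change, agl67 mutant minus wild type (horizontal axis, points), with the standard error of the limma fit (bars) for the 27 probe sets with desaturase in their titles, coloured by the class the title gives. FAD3 (1.86) and FAD2 (1.42) stand at the top, followed by 260869_at (1.16) and SLD1 (1.15), and the others lie between -0.75 and 0.57.

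Cytochrome b5 and NADH-cytochrome b5 reductase, the kinds of protein that pass electrons to FAD2 and FAD3, were read by 7 probe sets. Of these, 1 came from the gene list and the others from their titles, and which of them serve FAD2 and FAD3 was not tested. In limma 0 passed, 3 had an unadjusted p below 0.05, and 0 passed in the authors' deposited table. Of all probe sets 2.7% passed in limma and 2.25% in the authors' deposited table. Of the 7, 6 had a change above 0, with a median of 0.32, where over all probe sets 16.4% had such an unadjusted p, 54.9% a change above 0, and the median was 0.02. The cytochrome b5 probe set 267544_at had a change of 0.46 (limma adjusted p = 0.0594) and the reductase probe set 250055_at one of 0.44 (limma adjusted p = 0.133). The call of 267544_at depended on the setting. It passed without the third wild-type array, with 0.51 (limma adjusted p = 0.0184), and with array weights on all 6 arrays, with 0.50 (limma adjusted p = 0.0153). It did not pass under the other alternatives, with limma adjusted p-values up to 0.390.

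Genes that make the phosphatidylcholine on which FAD2 and FAD3 act, together with long-chain acyl-CoA synthetases, were read by 19 probe sets. Of these 1 fell and 18 did not pass, where 0.778% of all probe sets fell. Of the 19, 5 had an unadjusted p below 0.05 and 15 a change above 0. Over all probe sets 16.4% had such a p and 54.9% a change above 0. The one that fell was AT4G09760, a putative choline kinase gene of phosphatidylcholine synthesis, with -0.75 (SE 0.13, limma adjusted p = 0.0291). Of the 6 fits with 1 array left out it passed in 2, without wild-type replicate 1 (-0.63) and without wild-type replicate 3 (-0.83). Another putative choline kinase probe set, 261506_at, went the other way with 0.61 and did not pass (SE 0.19, limma adjusted p = 0.173). Of 8 listed genes of triacylglycerol assembly 0 were paired with a probe set, and 4 probe sets were found by their titles alone. Of these 4, 0 passed in limma or in the authors' deposited table, where 2.7% and 2.25% of all probe sets did. An unadjusted p below 0.05 was reached by 0 of the 4, against 16.4% of all probe sets. Among the 4, the acyltransferase probe set 267280_at, titled DGAT, had a change of -0.25, and the lysophosphatidate acyltransferase probe set 251596_at one of 0.29.

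Of 16 probe sets for elongation of fatty acids in the endoplasmic reticulum 0 passed in limma or in the authors' deposited table. Of all probe sets 2.7% passed in limma and 2.25% in the authors' deposited table. An unadjusted p below 0.05 was reached by 1 of the 16, against 16.4% of all probe sets. KCS1, a ketoacyl-CoA synthase gene, had a change of 0.68 (limma adjusted p = 0.271), and 265918_at, titled a putative elongase, one of 0.23. Plastid fatty acid synthesis was read by 19 probe sets, with a median change of 0.19. Of these 0 passed in limma or in the authors' deposited table and 2 had an unadjusted p below 0.05, a share below the 16.4% of all probe sets. The acyl carrier protein probe set 264189_s_at had a change of 0.62 (limma adjusted p = 0.111) and the enoyl-ACP reductase probe set 266035_at one of 0.47. Without the second wild-type array 264189_s_at passed, with 0.80 (limma adjusted p = 0.0450).

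The list of regulators of seed oil and maturation genes named 11 genes and was read by 8 probe sets. Of these 8, 2 rose and 6 did not pass, where 1.93% of all probe sets rose. The list was chosen with earlier results of these data known. LEC1, L1L and bZIP67, known as activators of FAD3 in developing seeds, were among the 6. Their changes were 0.13 for LEC1, -0.37 for L1L and 0.19 for the bZIP67 probe set 252645_at. In the same order they averaged 3.95, 3.51 and 3.09 in mutant seeds and 3.82, 3.88 and 2.90 in wild-type seeds. Readings this low lie around or below the array medians and may hide a change. ABI3, also among the 6, averaged 8.56 in mutant seeds and 8.92 in wild-type seeds, with overlapping groups. Its change of -0.36 did not pass (limma adjusted p = 0.272) and was opposite in sign to those of FAD2 and FAD3. Of the 8 probe sets, 3 had an unadjusted p below 0.05, against 16.4% of all probe sets. The genes that rose with FAD2 and FAD3 were EEL, a bZIP gene active in seeds, with 1.00 (limma adjusted p = 0.0226), and the ABA-response gene ABI4, with 0.95 (limma adjusted p = 0.0284). Of the 6 fits with 1 array left out, 1 kept the call of EEL, without wild-type replicate 3 (0.99), and 2 kept that of ABI4, without wild-type replicate 1 (1.09) or 3 (0.81). In the authors' deposited table EEL had a false discovery rate of 0.0564.

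The transcripts of the oil bodies, in which the products of FAD2 and FAD3 are stored, were read by 13 probe sets. Of these 1 fell and 12 did not pass, where 0.778% of all probe sets fell. The median change was 0.07. The one that fell was 253930_at, titled embryo-specific protein 1 (ATS1), which read 11.38, 11.28 and 11.43 in mutant seeds against 11.96, 11.94 and 11.97 in wild-type seeds. Its change was -0.60 (SE 0.09, limma adjusted p = 0.0226), opposite in direction to those of FAD2 and FAD3. Of the 6 fits with 1 array left out it passed in 2, without wild-type replicate 1 (-0.60) or 3 (-0.59).

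**Figure D4:**
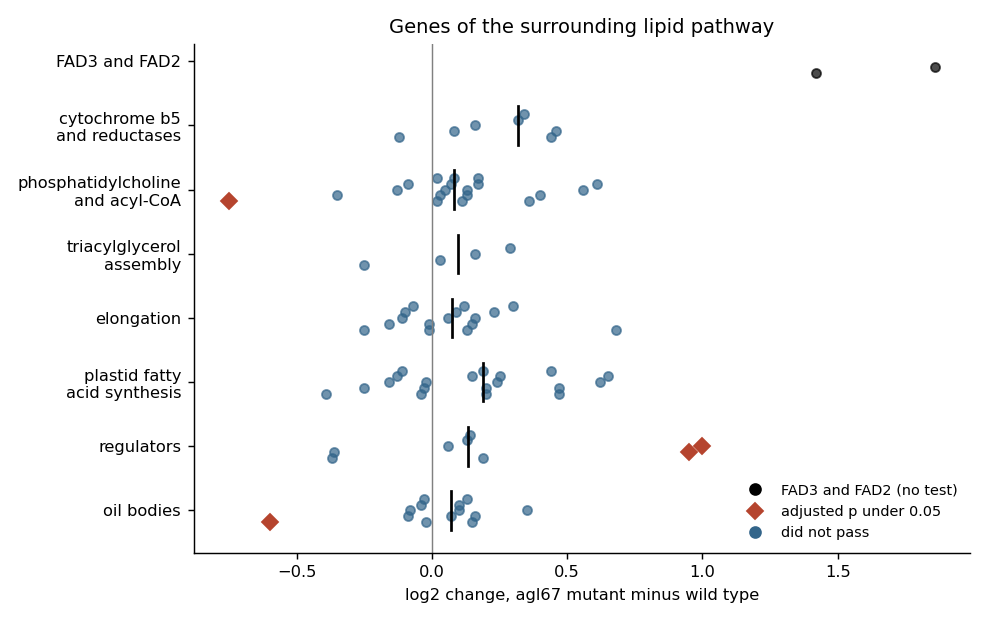
Log2 change, agl67 mutant minus wild type (horizontal axis), of FAD3 and FAD2 (black, no test) and of the probe sets of 7 surrounding lists, with diamonds for those that passed in limma and vertical lines for the list medians, which lie at 0.07 to 0.32. The 4 diamonds are AT4G09760 (-0.75), 253930_at (-0.60), ABI4 (0.95) and EEL (1.00).

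Markers of the parts of the seed were few. Of 5 listed endosperm markers only 1, EXPA2, was paired with a probe set. EXPA2 had a change of 0.84 that did not pass (limma adjusted p = 0.127), of the same sign as those of FAD2 and FAD3. Its arrays averaged 4.62 in mutant seeds and 3.78 in wild-type seeds, and its part in the change of FAD2 and FAD3 was not tested. The seed coat markers TT12 and BAN averaged 4.02 and 3.17 in mutant seeds and 4.18 and 3.26 in wild-type seeds, around or below the array medians. The embryo markers CRA1, EM1 and EM6 read at least 12.17 on all arrays, and readings toward either end of the scale may hide a change. The seed coat markers TT12 and BAN had changes of -0.16 and -0.09, and the embryo markers CRA1, EM1 and EM6 of -0.26, 0.13 and 0.02. Of the 6 markers, EXPA2 among them, 0 passed in limma or in the authors' deposited table, where 2.7% and 2.25% of all probe sets did. EXPA2 and CRA1 had an unadjusted p below 0.05, against 16.4% of all probe sets. With an intensity trend in the limma fit the embryo marker CRA1 passed, at -0.26 (limma adjusted p = 0.0279, against 0.245 without the trend), and its part in the change of FAD2 and FAD3 was not tested.

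The profile of FAD3 over the 6 arrays correlated with that of FAD2 at r = 0.962. Among 1771 probe sets that name 1 gene and span at least 1 log2 unit, FAD2 ranked 104 by likeness to FAD3, and FAD3 ranked 115 by likeness to FAD2. The 5 closest to FAD3, each with r of at least 0.994, were PIP1C, an aquaporin gene, AT2G46600, for a putative calcium-binding protein, AT5G24490, titled a 30S ribosomal protein, MSRB5, for a methionine sulfoxide reductase, and AT5G16120, for a hydrolase. Their changes were 1.07, 1.71, 1.25, 1.93 and 1.00. The 5 closest to FAD2, each with r of at least 0.993, were scpl26, for a serine carboxypeptidase, MRL7-L, CIPK15, for a protein kinase, AT2G47780, titled a rubber elongation factor relative, and AT3G47650, of the bsd2 family. Their changes were 1.15, 0.66, 1.16, 1.48 and 1.06, and the lists of 5 share no gene. The 6 points of each correlation fall into the 2 genotypes, so any gene with a clear gap between these reaches a high r.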

How the data were processed

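RNA from 3 agl67 mutant and 3 wild-type seed samples was hybridised to Affymetrix arrays, and RMA and limma (versions not given) are named in the submitters' processing notes. The value table deposited by the authors holds log2 expression values and was used without further scaling. A second deposited table gives the authors' own log2 ratios, mutant over wild type, with p-values and false discovery rates, per the file headers, and served as an alternative source of calls. Its 6 columns of values per array were not used. The 64 control probe sets were left out, which leaves 22746.

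Genotype was fitted as the only term in limma 3.58.1 (R 4.3.3) by lmFit and eBayes at their defaults. Benjamini-Hochberg adjustment ran over all 22746 probe sets, and an adjusted p under 0.05 counts as passing. The fit was tested on simulated data. FAD2 and FAD3 were chosen with this contrast known, so they are given with SD and SE and no p-value. The members, the lists and the tests were all chosen with earlier results of these data known.

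Genes came from the platform's table (13436 probe sets) or from symbols in the authors' titles, looked up in RefSeq TAIR10.1 and kept where at least 1 of the 10 neighbours in probe set number lies on that chromosome (1877 more). Probe sets that name several genes (503) or none (6930) are given by their ID. Pathway lists hold fixed genes plus probe sets added by words in their titles, and a gene with several probe sets is given by the one of highest mean. Named are FAD2, FAD3, AGL67, every other fatty acid desaturase of the titles or the gene list, up to 4 called members of each other list or, where none was called, the 2 of smallest p-value, and 5 genes of most similar profile for each of FAD3 and FAD2. Other probe sets named were chosen after their values were seen.

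Alternatives were quantile normalization, median centring, a replicate block, leaving out each array, an intensity trend, robust estimation, array weights, leaving out the dimmest 40% of probe sets, and the authors' calls. The numbers of the replicates were not treated as pairs.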

Additional observations from a re-analysis of the deposited data

How the results depend on the processing

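The changes of FAD3 and FAD2 were positive under all alternatives run, at 1.72 to 1.99 for FAD3 and 1.14 to 1.63 for FAD2, and with the replicate block they were 1.86 and 1.42. The number of arrays limits the precision. The 615 calls over all probe sets became 1042 after quantile normalization (593 higher and 449 lower, against 438 and 177), 1490 with array weights and 443 with the replicate block. With 1 array left out they were 86 to 1530, lowest without mutant replicate 3 and highest without wild-type replicate 3. The call of SLD1 among other desaturases became 0 to 1 calls with 1 array left out, 0 without wild-type replicate 2 or any mutant array. It became 2 with all titles that hold desaturase, a set added after seeing the data. The 4 calls among pathway lists became 2 with the replicate block, 2 with the listed genes alone (added after seeing the data; this leaves out members found by title), and 0 to 5 with 1 array left out, 0 without any 1 mutant array. The calls lost with the replicate block were those of ABI4 (limma adjusted p = 0.0532) and 253930_at (limma adjusted p = 0.0659). The intensity trend added a call for CRA1, and array weights one for 267544_at. Arrays of the same replicate number had deviations from their group means that correlated at -0.16, 0.14 and 0.22 across probe sets, and 3 of 6 arrays correlated best with their own number. AGL67 lay at -4.75 to -4.39 with 1 array left out.

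Signs turned for changes near 0 that did not pass. AT3G15870 became -0.03 with median centring, and AT3G02630 became -0.09 with quantile normalization and -0.04 with array weights (-0.08 to 0.21 with 1 array left out). ADS2 became -0.01 with quantile normalization and -0.06 with median centring (-0.02 to 0.04 with 1 array left out). 260950_s_at lay at -0.28 to 0.02 with 1 array left out, and BAN was at 0.05 in the authors' deposited table. Apart from the members left out by construction, the cause of these shifts was not tested.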
